A study of Mus musculus with 24 samples.

Results

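Genes for the proteins of the cytosolic ribosome were followed in aged mouse organs. A gene was taken where the accession of its probe, without the version, belonged to a RefSeq symbol made of Rpl or Rps and a number, with or without a last letter a, x, y or l, or to Rplp0, Rplp1, Rplp2 or Rpsa. Among RefSeq symbols, 83 met this rule, and 82 of them were on the array with 141 probes, out of 22911 genes named on it. They comprised 46 genes of the large subunit, 30 of the small subunit and 6 paralogs (Rpl3l, Rpl10l, Rpl32l, Rpl39l, Rps4l and Rps27l), of which RefSeq lists Rps4l as a transcribed pseudogene. Male C57BL/6J mice gave white adipose tissue (WAT), kidney, lung and liver, whose RNA was hybridised to 24 Agilent arrays in 1 colour. The young group of each tissue held 3 samples from mice of 10 weeks (10W) and the aged group 3 samples from mice of 90 weeks (90W), the aged livers being numbered 1, 2 and 4. No transgene or treatment is given for any group, and the labels do not say if tissues came from the same animals.

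The cytosolic ribosome translates nuclear messages. Its large subunit joins amino acids and carries the P stalk (Rplp0, Rplp1, Rplp2), which recruits elongation factors, while its small subunit, to which Rpsa belongs, binds the message and reads its codons. Messages of ribosomal proteins are among the most abundant of most cells and typically begin with a terminal oligopyrimidine (TOP) tract, a run of C and T at the start of the transcript through which mTOR signalling controls their translation. Several members have a close paralog of restricted expression: Rpl3l is known from striated muscle, Rpl10l and Rpl39l from testis, and Rps27l as a gene that p53 can induce.

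Start sites are shown for members on which the results below turn, since the pyrimidine run at the start is the feature that most of this family shares. Each line gives the 15 bases before and the 15 bases after a start listed by RefSeq on GRCm38.p6. Capitals mark the longest run of C and T where it held at least 7 bases. Where several starts were listed (3 for Rpl35a, 2 for Rps27l and Rpl3l), the start with the longest run was shown.
Rpl12 (chr2:32961697-32961726, plus strand): ggcggagcaggatccgTCTTTTCggctttc
Rpl35a (chr16:33056467-33056496, plus strand): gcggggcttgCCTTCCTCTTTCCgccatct
Rps2 (chr17:24720048-24720077, plus strand): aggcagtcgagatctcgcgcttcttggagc
Rps27 (chr3:90213634-90213663, minus strand): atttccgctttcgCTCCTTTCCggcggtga
Rps27l (chr9:66946071-66946100, plus strand): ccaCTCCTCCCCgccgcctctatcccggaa
Rpl39 (chrX:37085208-37085237, minus strand): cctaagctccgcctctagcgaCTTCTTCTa
Rpl39l (chr16:10170213-10170242, plus strand): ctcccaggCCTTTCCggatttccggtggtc
Rpl3l (chr17:24727811-24727840, plus strand): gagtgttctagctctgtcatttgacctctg
Rpl12, Rpl35a, Rps27, Rps27l, Rpl39 and Rpl39l held such a run in this window, whereas Rps2 and the muscle paralog Rpl3l did not. The marked runs of Rps27l and Rpl39l lay wholly before the listed start. Of the 61 members with a promoter in the RefSeq table, 34 (55.7%) had a run of at least 7 pyrimidines within 15 bases of a start, compared with 21.3% of 27025 genes. The letters CTTTC, which can lie inside such a run, stood in the same window of 17 members (27.9%) and 4.76% of all genes. From 250 bases before to 50 after the start, CGGAAGT on either strand was found in 21 members (34.4%, against 7.20% of all genes) and AAGATGG, also on either strand, in 9 (14.8%, against 7.28%). TATAAA stood in the 50 bases before the start in 0 of the 61 members and 3.16% of all genes. These matches describe letters only.

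Each tissue lay on 1 slide and in 1 scan of its own with both ages on it, so that levels between tissues and between slides cannot be told apart. The 75th percentile signal, by which each array was scaled, ran from 259 to 956 fluorescence units, and 58.6% to 71.1% of probes were well above background. Aged lung 1 had 59.5%, the other lung arrays lying between 66.0% and 70.0%. All 5 defining markers of each tissue were tested in it. In the aged kidneys the summed signal of the 5 kidney markers was 580 to 911 times the 75th percentile, against 1330 to 1579 in the young, and all 5 were called lower (4 with the spike-in and 2 with the loess scaling described below). The 5 liver markers summed to 2765 to 3338 in young and 1896 to 2370 in aged livers, where 2 were called lower, though none with spike-in or loess scaling. Adipose markers summed to 11.6 to 14.1 in young and 17.1 to 19.9 in aged kidneys, with 4 higher and 1 lower (4 and 0 with both other scalings). In lungs they summed to 36.9 to 62.3 in the young and 7.76 to 25.2 in the aged. Of these 5 adipose markers 2 were called lower in the lung, also with spike-in and loess scaling. Macrophage markers rose in kidney, liver and WAT. Their sum (6 genes) was 21.5 to 24.6 in young and 81.7 to 124 in aged kidneys. It was 41.9 to 59.5 and 196 to 236 in livers, and 42.1 to 127 and 241 to 534 in WAT. All 6 were called higher in kidney and liver and 3 in WAT, against none in the lung. All 6 markers of B and plasma cells were called higher in kidney and WAT, as were all 5 T cell markers in kidney and lung. Single arrays also carried messages of other tissues or cells. Young WAT 1 read 2.02 for Lrp2 and 0.32 for Kap, both kidney markers, where the other young WAT arrays read -0.82 and -1.36, and -3.90 and -3.21. Aged lung 1 read 6.68 for the liver marker Alb and 3.22 for Ttr, beside 1.08 and -1.45, and -3.07 and -6.25, on the other aged lungs. The neutrophil gene S100a9 stood at 9.59 on aged liver 2, beside 4.26 and 3.57 on the other aged livers. In WAT the 4 neutrophil markers tested summed to 1.90 to 88.3 in young and 4.89 to 811 in aged samples, with 0 called. Without young WAT 1 the median change of the members in WAT, given below as 0.37, was 0.47. Without aged lung 1 that in the lung went from 0.09 to 0.15, and without aged liver 2 that in the liver went from 0.09 to -0.00. In bulk tissue, a lower share of a cell type and less RNA per cell cannot be told apart, and the part of these shifts in the ribosomal protein values was not tested.

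Probes of ribosomal protein genes were among the brightest on every array, although brightness depends on the probe and sets no order of abundance between genes. Signals are given below on the log2 scale relative to the array's 75th percentile, so that 0 is that percentile and a difference of 1 is a factor of 2. Of the members, 78 (liver), 81 (lung), 81 (kidney) and 80 (WAT) passed the filter on dim probes, and 77 in each tissue lay in the brightest decile of the genes tested. Rpl10l passed in no tissue, Rpl3l failed in liver and WAT, and Rpl39l and Rpl37 failed in the liver. The Rpl37 probe lay low, at percentile 20.6 of signal in the kidney and 6.78 in WAT. The median member stood at 6.88 ± 0.10 in young and 6.92 ± 0.14 in aged livers (SD, n = 3), and at 6.67 ± 0.03 and 6.80 ± 0.10 in lungs. In kidneys it was 6.53 ± 0.05 and 6.40 ± 0.01, and in WAT 6.57 ± 0.20 and 6.93 ± 0.13.

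The question of the comparison was which messages differ between young and aged organs. Under 75th percentile scaling the core ribosomal protein genes had small median changes in liver, lung and kidney and a larger one in WAT. In the kidney they did not move as a block. There 5 of 46 large subunit genes (median -0.09) and 13 of 30 small subunit genes (median -0.02) had positive changes. With spike-in, quantile and loess scaling the median of the members was 0.32 to 0.52 in the kidney and 0.20 to 0.40 in the liver, as described below. The widest falls that were called were those of the paralogs Rps4l in liver and lung and Rpl3l in the kidney. The median change (90W minus 10W) over the members tested was 0.09 for liver, 0.09 for lung, -0.07 for kidney and 0.37 for WAT, beside medians over all genes tested of -0.20, -0.08, -0.23 and -0.05. By limma with Benjamini-Hochberg adjustment over all genes, 21 of 81 members were called in the kidney, 1 each in liver and lung and 0 in WAT. Members showing a positive change numbered 61 of 78 (78.2%) for liver, 71 of 81 (87.7%) for lung, 19 of 81 (23.5%) for kidney and 78 of 80 (97.5%) for WAT, against 37.5%, 39.4%, 35.7% and 44.9% of all genes.

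**Figure D1:**
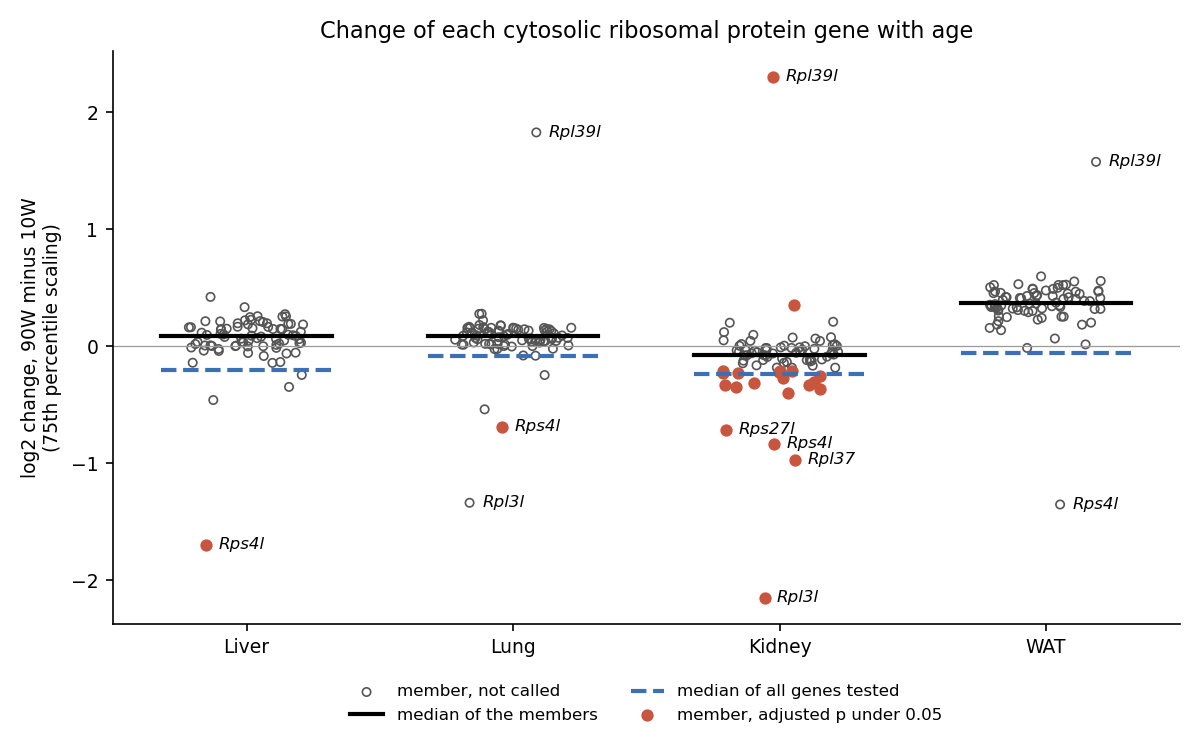
Change of each member between 10W and 90W mice in 4 tissues, on the log2 scale after 75th percentile scaling, with 1 point per gene. Filled points are members called by limma at adjusted p under 0.05, black lines the median of the members and dashed lines the median of all genes tested. Most members lie close to the black line, and Rps4l lies below it in every tissue.

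In the kidney 19 members were called lower and 2 higher, where 42.6% of all genes tested were called lower and 20.6% higher. Of these 2, the dim Rpl39l passed the filter only through the aged arrays, so that its call is not read as a change with age. Its values are given below. Aged and young arrays did not overlap for 35 members that were lower and 6 that were higher, the shares over all genes being 47.6% and 23.1%. Of the core subunits, 12 of 46 large and 4 of 30 small subunit genes fell, by 0.21 to 0.40 apart from the dim Rpl37 probe. The small subunit gene Rps2, whose protein lies near the message entry channel, had 6.32, 6.41 and 6.48 in the young and 5.95, 6.00 and 6.06 in the aged kidneys. These groups did not overlap, and the change was -0.40 (SE 0.08, adjusted p = 0.00607). Rpl35a, a large subunit protein, had 6.36, 6.45 and 6.51 in the young and 6.08, 6.05 and 6.08 in the aged, a change of -0.37 (SE 0.08, adjusted p = 0.00687). Rpl41, Rpl29, Rpl28 and Rpl7a had changes between -0.35 and -0.30. The lower calls of the core genes depended on the scaling, as described below, and 14 of the 21 called members had the other sign under spike-in scaling. They depended on single arrays too, the count of lower calls being 10 without young kidney 2, 10 without young kidney 3, 10 without aged kidney 1 and 9 without aged kidney 2.

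Rpl12, a protein at the base of the P stalk, was the core gene called higher in the kidney. Its values were 6.09, 6.15 and 6.21 in young and 6.55, 6.48 and 6.47 in aged kidneys, without overlap (change 0.35, SE 0.08, adjusted p = 0.00759). It kept its call under spike-in (0.74), quantile (0.93) and cyclic loess scaling (0.94). In the other tissues its changes were 0.06 (liver), 0.16 (lung) and 0.50 (WAT), of which none passed. The stalk proteins proper did not pass in the kidney. Rplp0 changed by -0.12 (adjusted p = 0.212), Rplp1 by -0.01 (0.877) and Rplp2 by -0.04 (0.689), and Rpsa, the small subunit protein that also serves as a laminin receptor precursor, by 0.05 (0.583). With quantile and loess scaling all 4 were called higher in the kidney, by 0.43 to 0.65, and Rpsa also with the spike-ins (0.44, adjusted p = 0.0483).

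Over the 3 remaining tissues these 4 genes, named by symbol in the rule, gave no call either. Rplp0 differed by -0.02 (liver), 0.10 (lung) and 0.18 (WAT), Rplp1 by -0.06, 0.02 and 0.45, Rplp2 by -0.00, 0.16 and 0.32, and Rpsa by 0.09, 0.28 and 0.45. The adjusted p nearest to the threshold was that of Rpsa in the lung (0.116), where the young arrays read 6.42, 6.43 and 6.49 and the aged 6.63, 6.80 and 6.74 without overlap.

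In the liver no member was called higher by limma, against 10.5% of all genes, and 1 was called lower, against 17% of all genes. At an unadjusted p under 0.05 there were likewise 0 higher and 1 lower, and the methods' t-test called 0 after adjustment, with 2 higher and 1 lower unadjusted. Aged livers lay above young ones without overlap for 6 members and below for 3, while 16.8% and 33.1% of all genes did so. The 30 small subunit genes had a median change of 0.15 and the 45 large subunit genes of 0.06. Rps4x, a small subunit protein encoded on the X chromosome, read 5.74, 6.03 and 5.71 in young and 6.07, 6.24 and 6.17 in aged livers (change 0.33, SE 0.16, adjusted p = 0.156). Under 75th percentile scaling the median change of the members in the liver rested on aged liver 2. The median member was 7.07 there, beside 6.79 and 6.90 in the other aged livers. Without that array the median change was -0.00. With the spike-ins aged liver 2 instead had the lowest median member of the aged livers (log2 signal 15.44, beside 15.92 and 15.66). The median change with the spike-ins stayed between 0.06 and 0.30 whichever array was left out.

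In the lung no member was called higher (2.72% of all genes were) and 1 was called lower (2.89%). At an unadjusted p under 0.05, 3 members were higher and 3 lower, and the methods' t-test called 0 after adjustment, with 6 higher and 2 lower unadjusted. Aged values stood above young ones without overlap for 15 members and below for 4, beside 11.6% and 24.2% of all genes. The small subunit genes varied little among themselves, 29 of 30 having positive changes of at most 0.28. The direction depended on the scaling, since under spike-in scaling the median was -0.01 and 36 of 81 members were above 0. Without aged lung 1 the median was 0.15 with the 75th percentile and 0.01 with the spike-ins, and without aged lung 2 it was 0.04 and 0.04.

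Under 75th percentile scaling WAT showed the largest shift of the members' median, with no single gene called. Limma called 0 of 80 members higher or lower, beside 2.01% and 0.579% of all genes. At an unadjusted p under 0.05, 19 were higher and 1 lower, and the methods' t-test called 0 after adjustment, with 31 higher and 1 lower before it. For 41 members the aged arrays were above the young without overlap, and for 1 below, beside 13.7% and 15% of all genes. Changes of the 30 small subunit genes ran from 0.07 to 0.60 with a median of 0.43, and those of the 46 large subunit genes from -0.01 to 0.55 with a median of 0.34. Rps27a, which is made as a fusion with ubiquitin, had 7.39, 7.01 and 6.86 in young and 7.82, 7.45 and 7.77 in aged WAT. Its change was 0.60 (SE 0.21, adjusted p = 0.209), and it was chosen after its values were seen, as the core gene with the widest difference. Replicates differed more here than elsewhere, the median SD of a member being 0.22 in young and 0.15 in aged WAT, beside 0.07 and 0.04 in the kidney. The median member of young WAT was 6.77, 6.58 and 6.37, and that of aged WAT 7.01, 6.78 and 7.01. When the spread was estimated over all 24 arrays in 1 fit, 47 members were called higher and 1 lower in WAT, beside 10.9% and 10.4% of all genes. The same fit gave 1 higher and 9 lower in the kidney (14% and 28.8%), 1 and 3 in the liver (13.3% and 28%) and none in the lung (1.95% and 1.26%).

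Rps4l had the lowest change of all members in the liver and WAT, and it was the member called in the most tissues. Liver values were 2.94, 3.02 and 2.86 in the young and 1.24, 0.56 and 1.92 in aged livers 1, 2 and 4, all aged values being below the young (change -1.70, SE 0.33, adjusted p = 0.0142). Lungs read 2.69, 2.53 and 2.78 in the young and 2.04, 1.97 and 1.92 in the aged (change -0.69, SE 0.10, adjusted p = 0.0240). In kidneys the values were 2.11, 2.21 and 2.20 against 1.22, 1.46 and 1.33 (change -0.83, SE 0.09, adjusted p = 0.000617). WAT read 3.42, 2.90 and 2.86 against 1.35, 2.30 and 1.48, again without overlap, but the change of -1.35 (SE 0.31) had an adjusted p of 0.0908. It fell in liver, lung and kidney under spike-in scaling too, by 1.59, 0.79 and 0.44. The liver call was lost without young liver 2 (adjusted p = 0.0553), and the lung call without any 1 of the 3 young lungs or aged lung 3 (0.0549 to 0.118). Rps4x, the gene whose sequence Rps4l resembles, changed by 0.33, 0.02, 0.21 and 0.33 in liver, lung, kidney and WAT and was called in none of them. Ribosomal protein genes have many near-identical copies in the genome, and since the probe sequences were not used here, reads of a probe from such copies were not checked.

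**Figure D2:**
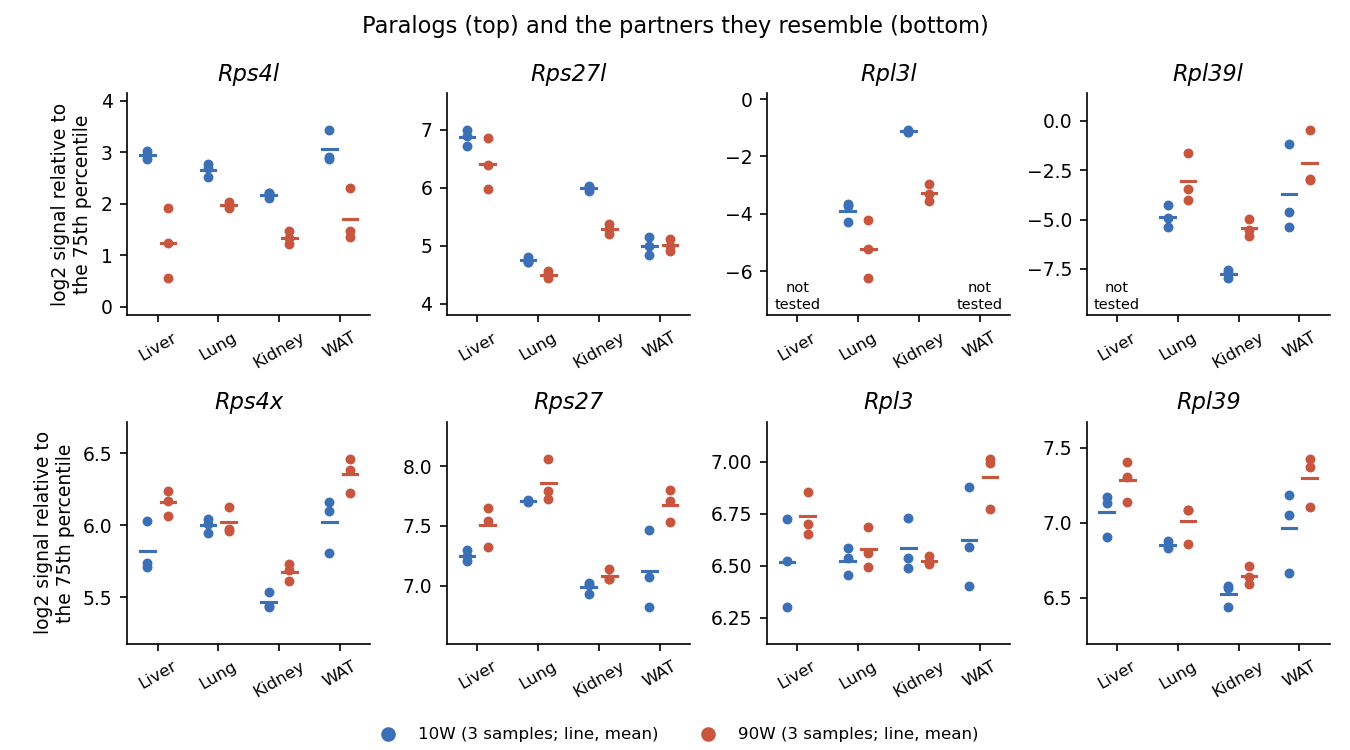
Signal of 4 paralogs (top row) and of the genes they resemble (bottom row) in each tissue, as log2 relative to the array's 75th percentile, with a point for each of 3 samples per age and a line at the mean. Each panel has its own axis. Rps4l is lower in every aged group, and Rps4x is not.

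Rps27l, the paralog of Rps27, fell in the kidney. It read 5.94, 6.02 and 6.03 in the young and 5.20, 5.28 and 5.38 in the aged, a change of -0.71 (SE 0.08, adjusted p = 0.000756) that was -0.32 with the spike-ins and no longer passed (0.0873). Its liver values were 6.90, 6.99 and 6.73 against 6.40, 5.98 and 6.86, which overlapped (change -0.46, adjusted p = 0.189). Lung and WAT gave -0.25 (0.140) and 0.02 (0.970). Rps27 itself had 6.93, 7.0 and 7.02 in young and 7.14, 7.06 and 7.05 in aged kidneys (change 0.10, adjusted p = 0.290), and 0.26, 0.15 and 0.56 in liver, lung and WAT without a call.

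Rpl3l had the widest fall of any member in the kidney. Its probe was of middling brightness there and read -1.09, -1.13 and -1.16 in the young and -3.56, -3.32 and -2.94 in the aged. The change was -2.15 (SE 0.16, adjusted p = 0.000202), and it was -1.76 with the spike-ins (adjusted p = 7.86e-05). In the lung it read -3.65, -3.72 and -4.29 against -6.24, -5.23 and -4.21, with only 1 of the 3 aged arrays well above background (change -1.34, adjusted p = 0.166). Rpl3, the general form, changed by -0.06 in the kidney and 0.06 in the lung (adjusted p = 0.576 and 0.721), and by 0.22 in the liver and 0.30 in WAT. The dim probe of Rpl37 fell in the kidney too, from -3.63, -3.78 and -3.43 to -4.31, -4.75 and -4.69 (change -0.97, SE 0.15, adjusted p = 0.00234).

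Rpl39l was dim wherever it was tested. In the kidney it was not well above background on any young array (-7.97, -7.55 and -7.70) and was so on all 3 aged ones (-4.95, -5.85 and -5.52). The fit gave an adjusted p of 0.000570, but the probe passed the filter only through the aged arrays, and no fold is given, because the young signal lies below background and no bound above 1 could be set. With normexp background correction the difference was 0.25 (adjusted p = 0.195). Lung read -5.36, -4.94 and -4.28 against -1.63, -3.47 and -3.99 without overlap, a change of 1.83 (SE 0.64) with an adjusted p of 0.143, and WAT overlapped (change 1.58, adjusted p = 0.529). Rpl39, its partner, changed by 0.21, 0.16, 0.12 and 0.33 in liver, lung, kidney and WAT, and none passed. Rpl10, whose paralog Rpl10l was not tested, fell by 0.25 in the kidney (SE 0.08, adjusted p = 0.0290) and gave -0.06 (liver), 0.07 (lung) and 0.35 (WAT). Its kidney change was positive under spike-in scaling (0.14, adjusted p = 0.432) and, with a call, under quantile scaling (0.31, adjusted p = 0.00913).

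The scaling between arrays decided the sign of the members' median in the kidney. Relative to 7 spike-in control probes (350 spots per array of added RNA) instead of the 75th percentile, every kidney gene moved up by 0.39, every liver gene by 0.11 and every WAT gene by 0.00, while every lung gene moved down by 0.10. The median of the kidney members was then 0.32 beside 0.16 over all genes, with 12 members called higher and 3 lower (29.5% and 13.9% of all genes). Without young kidney 2 or 3 there were 4 higher calls, without aged kidney 1 or 2 there were 3 and 2, and without aged kidney 3 there were 20. Rpl12, Rpl36a, Rpl39, Rps12, Rps27, Rps4x and Rpsa were among those called higher. Quantile normalization gave a median of 0.48 with 76 members higher and 4 lower (24.5% and 37.5% of all genes). Cyclic loess gave 0.52 with 75 higher and 3 lower (31.7% and 25.5%). Rpl12 was called higher, and Rps4l, Rpl3l and Rpl37 lower, under all 4 scalings. In the liver, spike-in scaling gave a median of 0.20 with 0 members higher and 1 lower (9.02% and 3.49% of all genes), quantile 0.38 with 10 higher and 1 lower (11.6% and 13.7%), and loess 0.40 with 4 higher and 1 lower (13.5% and 8.59%). In the lung 0 members were higher and 1, Rps4l, was lower under each of the 3, beside 1.89% and 1.94% of all genes with spike-ins, 2.81% and 2.65% with quantile and 3.25% and 1.65% with loess scaling. In WAT the median stayed between 0.21 and 0.37 with no call under any of them, the shares of all genes being 1.97% and 0.459%, 1.86% and 0.399%, and 2.5% and 0.565%.

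**Figure D3:**
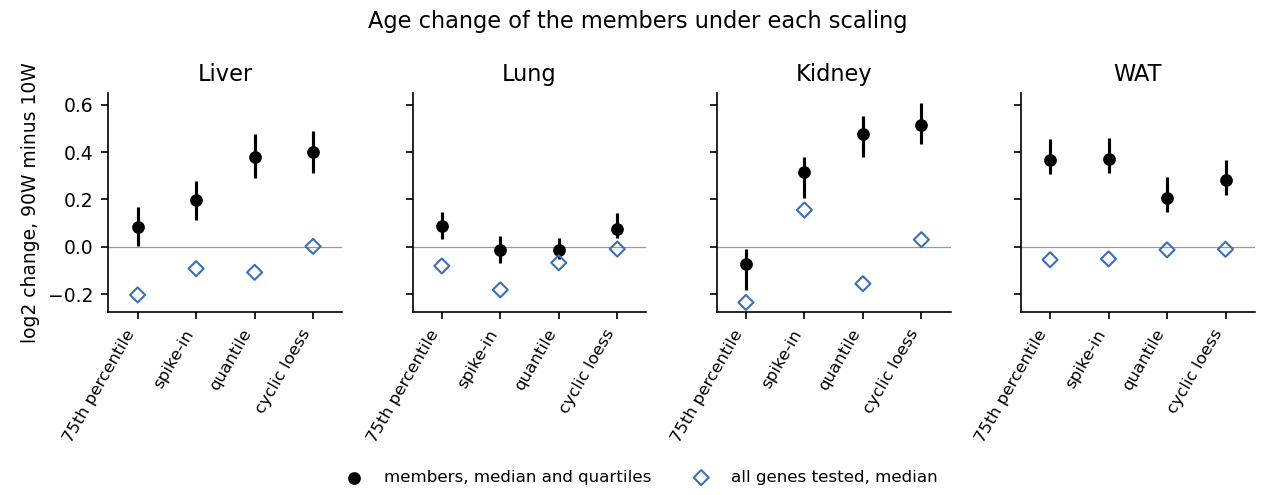
Change of the members between 10W and 90W under 4 scalings in each tissue, as log2 differences. Black points and bars are the median and quartiles over the members, and open diamonds the median over all genes tested. The kidney median of the members is -0.07 with the 75th percentile and 0.32 to 0.52 with the other scalings.

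The change differed with the brightness of the probes. In the kidney the median change over the genes of each decile of signal was -0.14 in the sixth decile and -0.49 in the brightest, whereas the 77 members in the brightest decile had a median of -0.07. In the liver the brightest decile had a median of -0.31 and its 77 members 0.09, in the lung -0.01 and 0.09, and in WAT 0.06 and 0.37. The median of these members thus lay above that of the brightest decile in all 4 tissues under 75th percentile scaling. A shift common to an array leaves that gap as it is. The decile is not a set of like brightness, since the median member lay at percentile 97.8 (liver), 99.2 (lung), 98.5 (kidney) and 98.9 (WAT). In the kidney the median change went from -0.33 in the ninth decile to -0.49 in the brightest. Quantile and loess scaling level such a trend over brightness, and the part of the trend in the members' values was not tested. The signal of the members, counting only the brightest probe of each gene, was also taken as a share of the summed signal. That sum ran over all non-control probes, with the other probes of the members included. The share was 3.09% ± 0.02 in young and 3.97% ± 0.21 in aged kidneys (SD, n = 3). In livers the shares were 2.54% ± 0.14 and 3.33% ± 0.31, in lungs 4.89% ± 0.03 and 5.08% ± 0.11, and in WAT 3.88% ± 0.58 and 4.71% ± 0.21. Young and aged arrays did not overlap in this share in liver, lung and kidney, and they did in WAT.

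**Figure D4:**
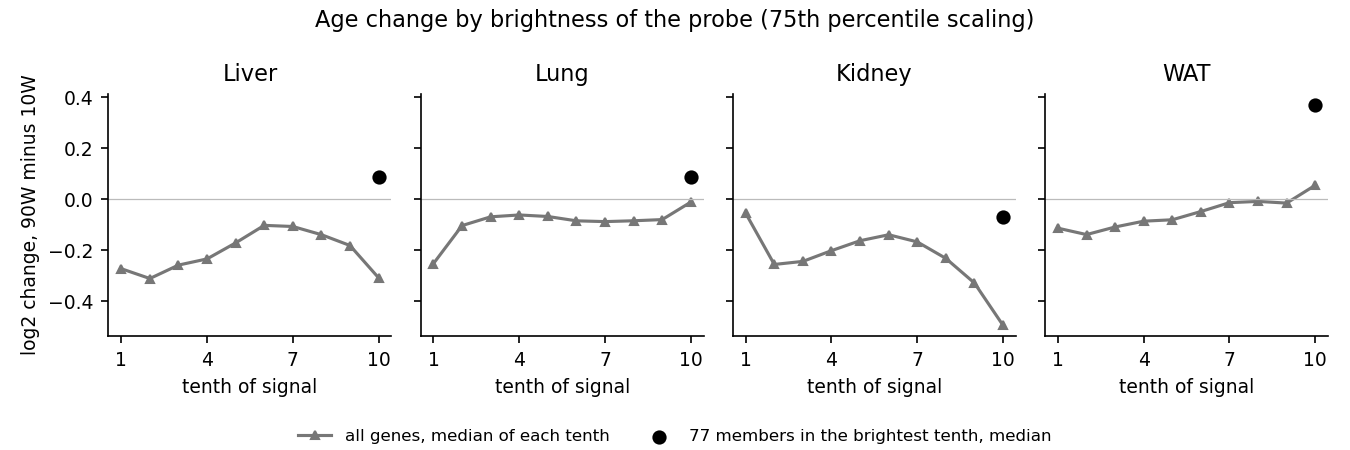
Median change between 10W and 90W of the genes in each decile of signal, from dim (1) to bright (10), with the median of the 77 members that lie in the brightest decile as a black point. The point lies above the grey line in each tissue, by the widest margin in the kidney and the liver.

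Measured against the members' own median on each array, a centring chosen after seeing the data, 7 members were called higher and 8 lower in the kidney, beside 24% and 33.7% of all genes. The higher ones were Rpl12 (0.48), Rps4x (0.33), Rps12 (0.32), Rps27 (0.22) and Rps9 (0.20) with Rpl39 and Rpl39l, the last tested only through its aged arrays. The lower ones were Rps2 (-0.28), Rpl41 (-0.22) and Rpl29 (-0.21) with Rpl35a, Rpl37, Rpl3l, Rps27l and Rps4l. In the liver, lung and WAT this centring left 0 members higher and 1, 1 and 0 lower. The background shares were 8.96% and 12% (liver), 2.85% and 8.47% (lung), and 1.2% and 0.755% (WAT).

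Where several probes of a gene passed, their changes lay close together. For the 43 such genes the median spread between the probes of 1 gene was 0.06 (liver), 0.05 (lung), 0.04 (kidney) and 0.04 (WAT). The widest exceptions were Rps24 in the kidney, with changes from -0.01 to 0.85 over 3 probes, and Rps15a in the lung, from -0.75 to 0.09 over 3. Rps24 also ran from 0.12 to 0.54 in the liver and from -0.19 to 0.18 in the lung. Rps15a, called lower in the kidney, had changes from -0.27 to 0.01 over 2 probes there. Probes of 1 gene had opposite signs for 7 (liver), 11 (lung), 8 (kidney) and 1 (WAT) genes.

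Genes for the mitochondrial ribosome, which translates the few messages of mitochondrial DNA, took another course. All 78 on the array were tested in each tissue. In the kidney 75 fell and none rose (median -0.81), beside 42.6% of all genes lower and 20.6% higher, though 3 were called higher and 64 lower with cyclic loess (31.7% and 25.5% of all genes). Examples were Mrps36 at -1.17 (adjusted p = 0.000437) and Mrpl12 at -1.14 (0.000551). The liver had 35 lower and 0 higher (median -0.55, beside 17% of all genes lower), the lung 1 lower (median -0.15, beside 2.89%) and WAT 0 (median -0.23, beside 0.579%). With spike-in scaling 41 in the kidney (median -0.42) and 0 in the liver (median -0.44) were lower, beside 13.9% and 3.49% of all genes. Calls in the liver were fewer with the spike-ins partly through wider SEs. The median SE of the cytosolic members there was 0.16 with the 75th percentile and 0.33 with the spike-ins. The distance between the median cytosolic and the median mitochondrial gene of 1 array does not depend on a shift of that array. It was 2.46, 2.45 and 2.44 in the young kidneys and 3.32, 3.19 and 3.04 in the aged. Young livers had 2.88, 2.92 and 2.94 and aged livers 3.40, 3.91 and 3.33. In lungs it was 3.85, 3.97 and 3.93 against 4.24, 4.30 and 4.29, and in WAT 3.49, 3.14 and 3.14 against 3.88, 3.67 and 3.83. The aged arrays were above the young in all 4 tissues, with mean differences of 0.74 in the kidney, 0.63 in the liver, 0.54 in WAT and 0.36 in the lung. The cytosolic set is the brighter of both, and the part of brightness in this distance was not tested.

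**Figure D5:**
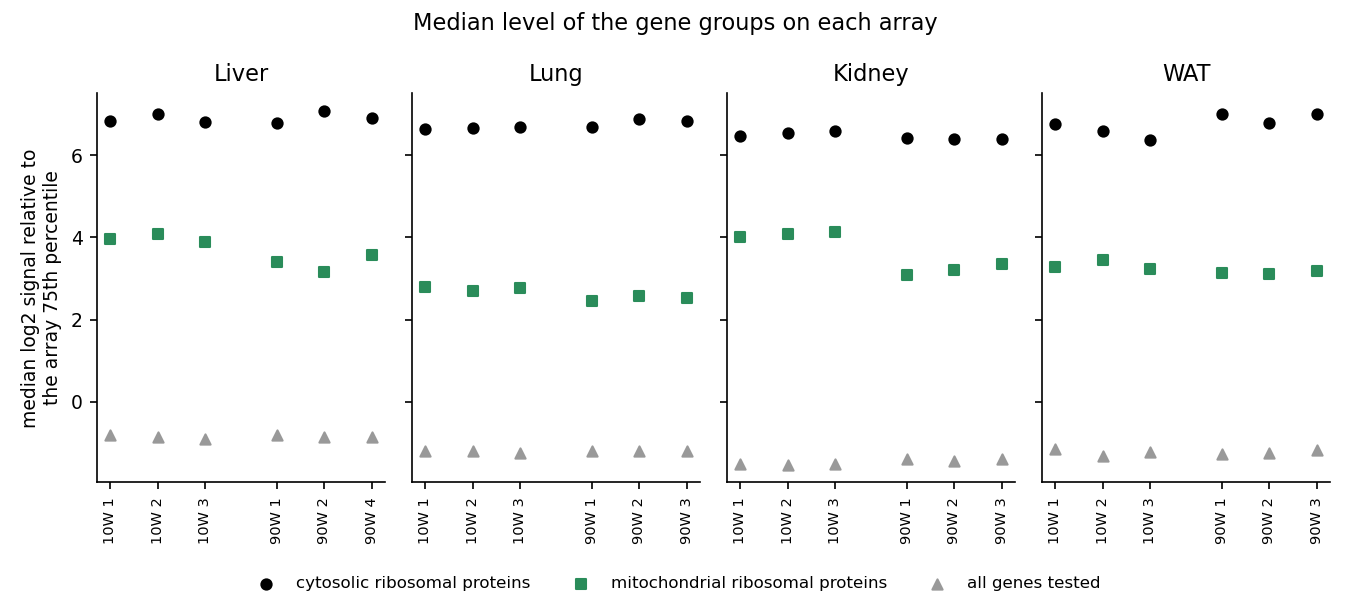
Median log2 signal, relative to the 75th percentile, of the cytosolic ribosomal protein genes (circles), the mitochondrial ribosomal protein genes (squares) and all genes tested (triangles) on each of the 24 arrays. The gap between circles and squares is wider on the 3 aged arrays than on the 3 young arrays of every tissue.

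Whether the change with age differed between tissues was tested for 78 members in 1 fit over the 24 arrays. The change was lower in the kidney than in WAT for 36 members and higher for 0, beside 17.7% and 7.44% of all genes. Rpl35a had the widest of these differences, -0.80 (SE 0.14, adjusted p = 0.000851), its WAT values being 6.25, 6.12 and 5.89 in the young and 6.65, 6.39 and 6.51 in the aged. Liver and WAT differed for 7 members, all lower in the liver (12.5% of all genes were lower and 6.39% higher), among them Rps2 at -0.60 (SE 0.18, adjusted p = 0.0255). Rpl35a was the single member that differed between lung and kidney, at 0.43 (SE 0.14, adjusted p = 0.0377), beside 15% of all genes that were higher in the lung and 8.33% lower. No member was called between liver and lung, liver and kidney, or lung and WAT, with 0, 8 and 0 higher and 2, 1 and 23 lower at an unadjusted p under 0.05. Background shares in these pairs were 6.56% higher and 10.2% lower, 5.09% and 4.31%, and 1.04% and 2.19%. With the spike-ins no difference between kidney and WAT (8.47% of all genes higher, 1.73% lower) or between liver and WAT (4.14% and 2.55%) was called. With quantile normalization the kidney exceeded WAT for 15 members and fell short for 0 (8.73% and 13.1% of all genes), so that the direction between tissues rested on the scaling. Single arrays moved these counts as well. Between kidney and WAT the count was 12 without young WAT 3, 18 without young kidney 3 or aged WAT 1, 20 to 23 without young kidney 2, aged kidney 2, aged kidney 3 or aged WAT 3, and 64 without young WAT 1. Between liver and WAT it was 0 without young WAT 3 or aged WAT 1, 1 to 4 without young liver 1 or 2, aged liver 1 or 4, young WAT 2 or aged WAT 3, 14 without aged liver 2 or aged WAT 2, and 28 without young WAT 1. The lung and kidney call was lost without any 1 of these arrays but young kidney 1 and aged lung 1, without which there were 1 and 2 calls.

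Of 6 genes followed for ribosomal proteins that the symbol rule leaves out, 2 were called lower in the kidney, beside 42.6% of all genes, and 0 higher (median -0.13), whereas loess scaling gave 4 higher and 1 lower (median 0.46). None was called in another tissue. Rpl36al, a copy of Rpl36a, fell by 0.55 (adjusted p = 0.00141) and Rpl7l1, which acts in ribosome assembly, by 0.68 (0.00366). Under spike-in scaling neither passed. Kidney changes of Fau (-0.15), Rack1 (-0.10), Rps3a1 (-0.08) and Rpl22l1 (-0.09) did not pass. These 4 were called higher in the kidney with quantile and loess scaling. Liver, lung and WAT medians over the 6 genes were -0.03, 0.05 and 0.30.

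Among genes that build ribosomes, 27 of 69 tested biogenesis genes were lower and 7 higher in the kidney (median -0.14), a share below the 42.6% of all genes called lower. The direction turned with the scaling, since 18 were higher and 3 lower with the spike-ins (29.5% and 13.9% of all genes) and 29 higher and 8 lower with loess (31.7% and 25.5%). There were 8 lower and 0 higher in the liver (median -0.21). Nhp2 and Nop10, of the particles that guide pseudouridine formation, fell in the kidney by 1.1 (adjusted p = 0.000415) and 0.90 (0.000418), while Utp14a and Nop56 rose by 0.54 (0.00154) and 0.42 (0.00898). Nop10 fell in the liver as well, by 0.72 (0.0386), with Rrp9 at -0.76 (0.0363). With the spike-ins they were at -0.61 and -0.65, and neither passed. In the lung Ddx21 rose by 0.46 (0.0421) and Tsr2 fell by 0.56 (0.0384), the single call in each direction there and not passed with the spike-ins, and WAT had none (median 0.20). Of 22 genes of RNA polymerase I and its factors, 9 were lower and 2 higher in the kidney, turning to 8 higher and 0 lower with the spike-ins and 8 higher and 2 lower with loess. Among them stood Myc at 1.66 (0.00321), Tcof1 at 0.82 (0.00232), Polr2k at -0.73 (0.000504) and Ubtf at -0.81 (0.0103), the last pair not passing with the spike-ins. As the mean of its probes, Ubtf was at -0.43. Liver had 2 higher, Taf1c (0.99, 0.00928) and Tcof1 (0.69, 0.0217), and 1 lower, Polr1e (-0.52, 0.0457). Lung and WAT had none.

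Of 19 genes of elongation and other TOP messages, 11 were lower and 2 higher in the kidney (median -0.29), but with the spike-ins 4 were higher and 1 lower (median 0.10) and with loess 13 higher and 1 lower (median 0.33). Cox7c, a subunit of cytochrome oxidase, fell by 1.22 (adjusted p = 0.000548) and Eif3l by 0.44 (0.00662), the latter not with the spike-ins, while Hnrnpa1 rose by 0.45 (0.00868) and Npm1, a nucleolar chaperone, by 0.24 (0.0294). Hnrnpa1 rose in the liver too (0.93, 0.0154), where Cox7c fell (-0.94, 0.0287), and lung and WAT gave no call. As the mean of its probes, Hnrnpa1 was at 0.61 in the liver and 0.34 in the kidney. Initiation factors had 19 of 29 lower in the kidney, led by Eif4g3 (-0.90, 0.000550) and Eif2s3x (-0.78, 0.00386, not passing with the spike-ins), and 3 lower in the liver, with Eif2b4 at -0.69 (0.0377) and Eif4g1 at -0.63 (0.0303). None was higher in any tissue with the 75th percentile. In the kidney 1 of the 29 was higher and 1 lower with the spike-ins, and 7 were higher and 4 lower with loess. In the pathway from mTOR to translation, 13 of 22 genes were lower and 4 higher in the kidney, against 6 higher and 1 lower with the spike-ins and 7 higher and 5 lower with loess. Mtor fell by 1.39 (0.00114) and Eif4ebp3 by 0.70 (0.00436, not passing with the spike-ins), and Eef2k, which inhibits elongation, rose by 1.17 (0.00213) and Ddit4, an inhibitor of mTOR, by 1.05 (0.0248). Liver had 3 lower, among them Akt1s1 (-0.83, 0.0104) and Pdcd4 (-0.72, 0.0354), lung had Deptor (-0.56, 0.0419), and WAT had none. Of 15 quality control genes, 8 were lower and 0 higher in the kidney, but 1 lower and 1 higher with the spike-ins and 2 lower and 5 higher with loess. Rnf10 was at -0.86 (0.000568) and Hbs1l at -0.68 (0.00122), the latter not passing with the spike-ins. Abce1, which recycles ribosomes, was the single one in the liver (-0.68, 0.0288). Of the liver genes named from these lists, Taf1c and Hnrnpa1 passed with the spike-ins. The others did not, though each kept its sign and had a wider SE. These counts stand beside 42.6% of all genes called lower and 20.6% higher in the kidney, and 17% and 10.5% in the liver.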

How the data were processed

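Total RNA of 24 mouse tissue samples was labelled with Cy3 and hybridised to Agilent arrays. The authors used Feature Extraction 11.0.1.1, and the deposited intensity of each of 62976 spots is, per the file headers, a processed signal after background subtraction and detrending, not scaled between arrays. The methods name a human kit, but the files carry a mouse design on mm9. Outlier spots were left out, spots of a probe were averaged as log2 values, and the array's 75th percentile over non-control probes was subtracted. Of 56605 probes 58.3% were named through RefSeq (GRCm38.p6). A probe was kept if 3 or more of a tissue's 6 arrays flagged it well above background, and the brightest probe stood for its gene, giving 27906 (liver), 30327 (lung), 31505 (kidney) and 30063 (WAT) genes, accessions without a symbol included. Ages were compared within each tissue with limma 3.58.1 (R 4.3.3) and Benjamini-Hochberg adjustment over all genes at 0.05, and the scripts were tested on simulated data. P-values in parentheses are adjusted. The labels number the samples without saying that they are separate animals, so p-values measure the spread between these samples. The number of arrays, 3 per group, limits the precision, and an exact permutation test of 3 against 3 cannot go below 0.1. Alternatives were other scalings, backgrounds, filters, probe rules and fits, and leaving out each array. Genes named were members called with the widest changes in each direction, the stalk genes, Rpsa, paralogs with their partners, ribosomal proteins outside the rule and up to 2 called genes per list and direction, and members otherwise named were chosen after their values were seen. Members, lists and tests were chosen with earlier results of these data known. Replicate numbers were not taken as pairs, since the labels do not say what they mean. Some genes are not reported here by name.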

Additional observations from a re-analysis of the deposited data

Results flagged for a closer look

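The change with age differed between tissues, by the test of the difference itself, for some members in 3 pairs of tissues, and the member with the widest difference among those called in each pair is given. Rps2 differed between liver and WAT by -0.60 on the log2 scale. Rpl35a differed between lung and kidney by 0.43 and between kidney and WAT by -0.80. With spike-in scaling these differences were -0.49, -0.06 and -0.41, and none passed (adjusted p = 0.234, 0.886 and 0.266).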

How the results depend on the processing

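In the kidney the median change was 0.32, 0.48 and 0.52 with spike-ins, quantile and loess scaling, with 12, 76 and 75 members higher and 3, 4 and 3 lower. It was -0.18 with 33 lower when centred on all genes, and 0.050 with 7 higher and 8 lower when centred on the members. Only symbol entries gave 4 higher, 1 fit over all arrays 1 higher and 9 lower, and the methods' t-test 4 higher. In the liver, quantile and loess gave medians of 0.38 and 0.40 with 10 and 4 higher, 1 fit over all arrays 1 higher and 3 lower, and the t-test 0 lower. In the lung the median was -0.015 with spike-ins, -0.012 with quantile and -0.045 centred on the members, and no filter, 1 fit over all arrays, the replicate block and the t-test each gave 0 lower. In WAT the median centred on the members was 0.0066, and 1 fit over all arrays gave 47 higher and 1 lower.

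Kidney signs turned with quantile and loess for Rps2 (0.19, 0.18), Rpl35a (0.22, 0.22, and 0.023 with spike-ins), Rpl10 (0.31, 0.45, and 0.14 with spike-ins), Rplp0 (0.43, 0.52), Rplp1 (0.56, 0.58), Rplp2 (0.52, 0.64), Rpl3 (0.52, 0.54), Rps3a1 (0.47, 0.55), Fau (0.44, 0.54), Rack1 (0.46, 0.56), Rpl22l1 (0.34, 0.38) and Eif3l (0.030, 0.086). With the spike-ins, which moved every kidney gene up by 0.39, the signs of Rplp0, Rplp1, Rplp2 and Rpl3 turned too. So did those of Fau (0.24), Rack1 (0.29), Rps3a1 (0.31) and Rpl22l1 (0.30). Rps2 and Eif3l (-0.053) stayed negative with the spike-ins, but neither was called. The change of Rps2 before this upward shift of 0.39 was -0.40, so that little of it was left. The cause was not tested.

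Between tissues, spike-ins left 0 members lower for liver and WAT, 0 lower for kidney and WAT, and 0 higher and 1 lower for lung and kidney. Quantile gave 0 lower for liver and WAT, 15 higher and 0 lower for kidney and WAT, 0 higher and 56 lower for lung and kidney, 12 higher for liver and lung and 1 lower for liver and kidney. No filter gave 0 lower for liver and WAT, 18 lower for kidney and WAT and 0 higher for lung and kidney.

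Same-numbered samples deviated together with r between -0.17 and 0.18, so the numbers were not taken as pairs. In the kidney each sample correlated best with its own number. The replicate block moved the kidney count from 19 to 11 lower, and gave 3 lower for liver and WAT, 0 higher for lung and kidney, 1 lower for liver and lung and 1 lower for liver and kidney.

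Leaving out 1 array gave medians of -0.00 to 0.14 in the liver (0.06 to 0.30 with spike-ins), 0.04 to 0.15 in the lung (-0.07 to 0.04), -0.11 to -0.05 in the kidney (0.26 to 0.40) and 0.27 to 0.47 in WAT (0.29 to 0.45). Lower calls were 0 to 1 in liver and lung and 9 to 15 in the kidney, and with spike-ins 0 to 1 in the lung and 1 to 2 in the kidney, beside 2 to 20 higher. Between tissues they ran from 12 to 64 lower for kidney and WAT, 0 to 28 lower for liver and WAT, 0 to 2 higher for lung and kidney, 0 to 2 higher and 0 to 1 lower for liver and kidney, 0 to 1 lower for liver and lung and 0 to 3 lower for lung and WAT. Signal over background limits Rpl39l, Rpl3l in the lung and Rpl37, and probe cross-matching was not checked.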
